A study of Rattus norvegicus with 6 samples.

Results

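The epidermal growth factor (EGF) receptor system was examined in rat keratinocytes with and without exposure to iron ions, through 10 listed genes. They comprise the 3 receptor genes Egfr, Erbb2 and Erbb3, the 5 ligand genes Hbegf, Areg, Ereg, Tgfa and Btc, and the 2 inhibitor genes Errfi1 and Dusp6. A probe set, the group of probes that reads a transcript on the array, was assigned to a gene where the platform annotation gave it that single symbol. All 10 genes were found, with 15 probe sets, out of 14217 genes with a single symbol and 31042 probe sets. Each gene was read from its probe set with the highest mean over all 6 arrays, and the other probe sets served as a check. The genes had been listed with other results of these data known.

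The cells were an immortalized line of keratinocytes from the back skin of newborn male Sprague-Dawley rats. The unirradiated group (3 samples) had no treatment. The irradiated group (3 samples) received 3 Gy of 56Fe ions at 1.01 GeV per nucleon. Each sample was hybridised to its own Affymetrix rat 230_2 array, and by the title of the series the question was how gene expression and cell cycle arrest respond to the ions. All samples come from the same line, and whether the replicates grew as separate cultures is not stated, so p-values speak of sample-to-sample spread alone, possibly technical. The culture medium, whether it held added EGF, and the time from irradiation to RNA extraction are not given in the labels used here.

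In the epidermis, EGF receptor signalling drives the growth, survival and migration of keratinocytes. Its ligands are made as membrane-anchored precursors that metalloproteases cut free, so that a keratinocyte stimulates itself and its neighbours. Bound receptors pair up and signal through Ras and ERK, through PI3-kinase and Akt, and through phospholipase C. Errfi1 binds the receptor kinase and blocks it, and Dusp6 is a phosphatase that removes the activating phosphates from ERK. Both inhibitor genes are themselves switched on by ERK signalling, so their mRNA is commonly read as an output of the pathway.

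Of the 10 genes, 0 passed the test for a difference in mRNA between irradiated and unirradiated keratinocytes, while Dusp6 passed in 2 of 17 other settings, with its probe sets averaged (limma adjusted p = 0.0303) and without unirradiated replicate 2 (0.0157). By limma, with Benjamini-Hochberg adjustment over all 18625 tested probe sets, 0 of 10 genes were called higher, against 1.5% of tested probe sets, and 0 of 10 were called lower, against 0.564%. At an unadjusted p under 0.05 there were 2, Dusp6 and Ereg, both with lower values after irradiation, against 13.3% of tested probe sets in either direction. The gene nearest to a call was Dusp6, at 552.5 ± 80.4 without and 408 ± 17.8 with irradiation (mean intensity ± SD, n = 3), with a limma adjusted p = 0.0779. The largest value above 0 was that of the ligand gene Btc, at 75.7 ± 17.4 and 99.1 ± 12.5, with a limma adjusted p = 0.389. The median log2 change of the 10 genes was -0.045, beside 0.0021 over all tested probe sets, and 4 genes lay above and 6 below 0. In this text a log2 change is irradiated minus unirradiated on the scale of log2(intensity + 16), which understates the change of dim genes.

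**Figure D1:**
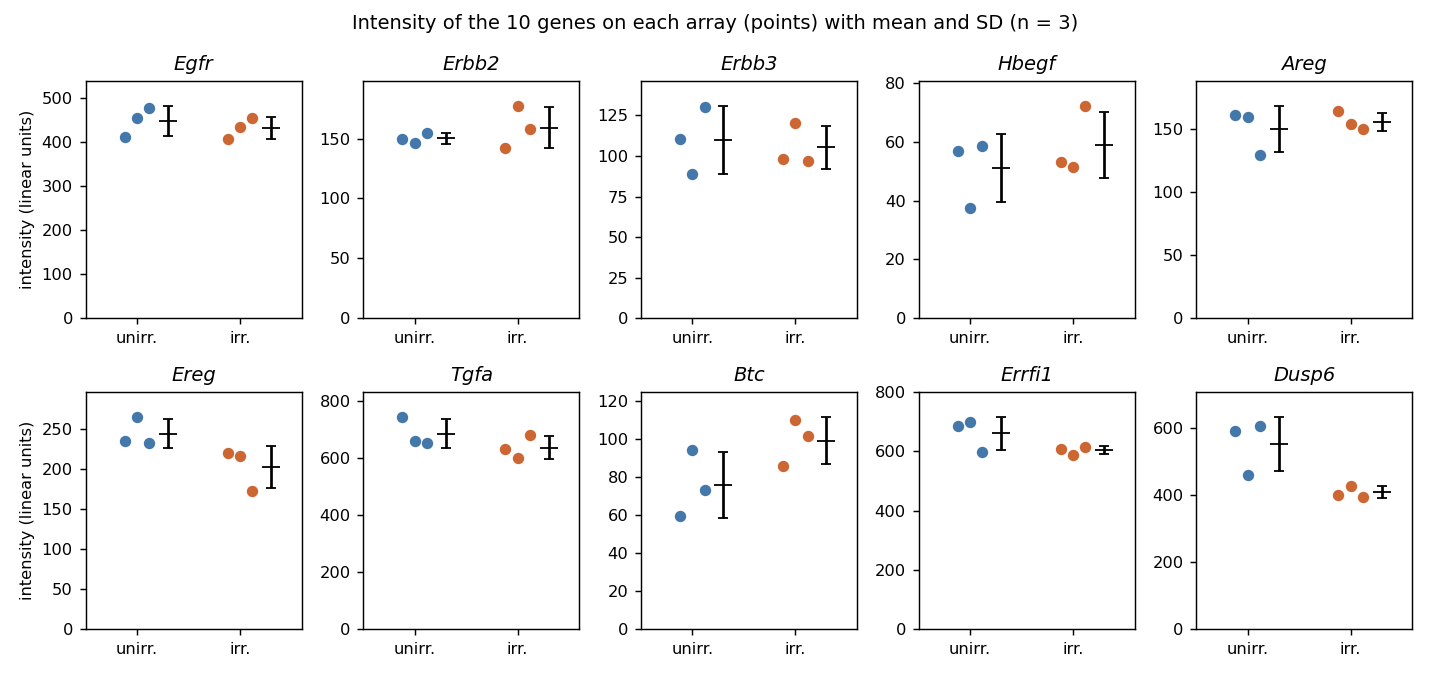
Intensity (linear units, axes from 0) of the 10 genes on each of the 6 arrays, in 1 panel per gene; blue points are unirradiated, orange points irradiated, and bars give the mean and SD of 3 arrays. The groups overlap in 8 panels, and the irradiated points lie below the unirradiated ones in Ereg and Dusp6.

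The promoters of Dusp6 and Btc, the genes with the lowest and the highest log2 change, are shown with that of the ligand gene Areg, which held a cAMP response element (CRE). These are the 250 bases before the annotated start, 5′ to 3′ on the gene's strand, from RefSeq (GRCr8), at chr7:35979354-35979603, plus strand, chr14:16992418-16992667, plus strand, and chr14:17265642-17265891, minus strand. Capitals mark a match to AP-1, CRE or ETS letters.
Dusp6: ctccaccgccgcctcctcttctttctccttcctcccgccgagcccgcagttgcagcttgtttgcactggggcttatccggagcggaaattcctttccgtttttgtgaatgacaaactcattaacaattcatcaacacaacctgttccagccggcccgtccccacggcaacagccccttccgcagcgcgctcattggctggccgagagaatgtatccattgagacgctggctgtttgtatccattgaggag
Btc: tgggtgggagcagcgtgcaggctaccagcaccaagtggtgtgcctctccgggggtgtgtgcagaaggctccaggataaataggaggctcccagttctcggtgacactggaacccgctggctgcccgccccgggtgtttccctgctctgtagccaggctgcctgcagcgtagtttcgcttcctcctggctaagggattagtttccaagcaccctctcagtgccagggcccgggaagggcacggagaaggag
Areg: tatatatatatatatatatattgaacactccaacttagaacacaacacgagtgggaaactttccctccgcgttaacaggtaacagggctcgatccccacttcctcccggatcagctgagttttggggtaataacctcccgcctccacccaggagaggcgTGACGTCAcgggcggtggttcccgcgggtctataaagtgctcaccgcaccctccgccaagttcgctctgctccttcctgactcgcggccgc

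RefSeq promoters were matched for 8 of the 10 genes, all but Erbb3 and Ereg. They were searched on both strands for 5 motifs, with no overlap between matches. AP-1 (TGANTCA) was found in 0 of 8, against 6.34% of 33469 promoters of the same length. CRE (TGACGTCA) was found in 1, Areg, with its first base at -91 from the start, against 1.59% of promoters. The ETS letters CCGGAAG were found in 1, Egfr, against 7.27%. The GC box (GGGCGG) was found in 6 of 8, against 30.5%, and TATAAA in 2, Areg and Errfi1, against 12.9%. The 8 promoters held from 54.4% (Areg) to 74.4% (Tgfa) G and C, and the 33469 promoters were not matched to them for base composition. Of the 3 promoters printed above, those of Dusp6 and Btc held none of the AP-1, CRE or ETS letters in this window. Areg, with its CRE match, had a log2 change of 0.056. A match is a description of the letters, and binding was not measured here.

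Among the receptors, Egfr encodes the receptor that all 5 ligands bind. Its intensity was 411.0, 454.9 and 477.2 on the unirradiated and 406.8, 435.5 and 455.0 on the irradiated arrays. The groups overlapped almost completely, and the log2 change was -0.047 with a 95% confidence interval from -0.24 to 0.15 (limma adjusted p = 0.878). A second probe set of Egfr was at 442.0, 288.0 and 407.1 without and 308.2, 314.6 and 372.4 with irradiation. Its unirradiated values spread more widely than the irradiated ones, and its log2 change was -0.17 (limma adjusted p = 0.674). The remaining probe set was dim, between 1.6 and 13.9 on all arrays, and was not tested.

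Erbb2 encodes a receptor that has no known ligand of its own and acts as the preferred partner of the others. Its values were 149.7, 146.1 and 154.7 without and 142.5, 176.8 and 158.3 with irradiation. The irradiated arrays included both the lowest and the highest value, and the log2 change was 0.072 (-0.17 to 0.32; limma adjusted p = 0.847). Erbb3, a receptor with little kinase activity that recruits PI3-kinase, was at 110.4, 88.6 and 130.2 without and 98.4, 120.6 and 97.2 with irradiation. The irradiated values lay inside the unirradiated range. The log2 change of Erbb3 was -0.043 (-0.36 to 0.28; limma adjusted p = 0.938), and its sign turned without unirradiated replicate 3 (0.073) or irradiated replicate 3 (0.0051).

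The 5 ligand genes went both ways, and 0 of them passed. Ereg encodes epiregulin, which binds Egfr and Erbb4. Its values were 234.6, 265.0 and 232.5 on the unirradiated and 220.3, 215.9 and 172.4 on the irradiated arrays. All 3 irradiated values were below all 3 unirradiated ones, by a narrow margin except on irradiated replicate 3. The log2 change was -0.25 (-0.50 to -0.0035; limma adjusted p = 0.365), and the exact permutation test gave p = 0.1 (two-sided), the lowest value possible with 3 arrays in each group. Without 1 array the log2 change of Ereg lay between -0.31 and -0.15.

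Btc encodes betacellulin, also a ligand of Egfr and Erbb4. It was at 59.6, 94.2 and 73.4 without and 85.6, 110.2 and 101.5 with irradiation. Unirradiated replicate 2 overlapped the irradiated range, and the other unirradiated values lay below it. The log2 change was 0.34 (-0.0067 to 0.68; limma adjusted p = 0.389), and 93.8% of tested probe sets had a lower one. It was 0.21 without unirradiated replicate 1 and 0.48 without unirradiated replicate 2. Hbegf encodes heparin-binding EGF, a ligand linked to keratinocyte migration in wounds. The dimmest of the 10 probe sets, it was at 56.9, 37.6 and 58.7 without and 53.2, 51.5 and 72.0 with irradiation. The highest value was on irradiated replicate 3 and the lowest on unirradiated replicate 2, with a log2 change of 0.16 (-0.22 to 0.55; limma adjusted p = 0.757). That value came to 0.011 without unirradiated replicate 2, to 0.043 without irradiated replicate 3 and to 0.25 without unirradiated replicate 3.

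Areg encodes amphiregulin, an autocrine growth factor of keratinocytes. It was at 160.9, 159.7 and 129.3 without and 163.9, 153.7 and 150.1 with irradiation. Only unirradiated replicate 3 stood below the rest; the log2 change was 0.056 (-0.20 to 0.31; limma adjusted p = 0.892), and it turned to -0.037 without that array. Tgfa encodes transforming growth factor alpha, another autocrine ligand of these cells. It was at 743.0, 660.9 and 651.9 without and 629.7, 599.9 and 679.8 with irradiation. The groups overlapped through irradiated replicate 3, and the log2 change was -0.10 (-0.29 to 0.086; limma adjusted p = 0.673). A second probe set of Tgfa had a log2 change of 0.11 (limma adjusted p = 0.817), so that the 2 probe sets differed in sign, and their mean had a log2 change of 0.0046.

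**Figure D2:**
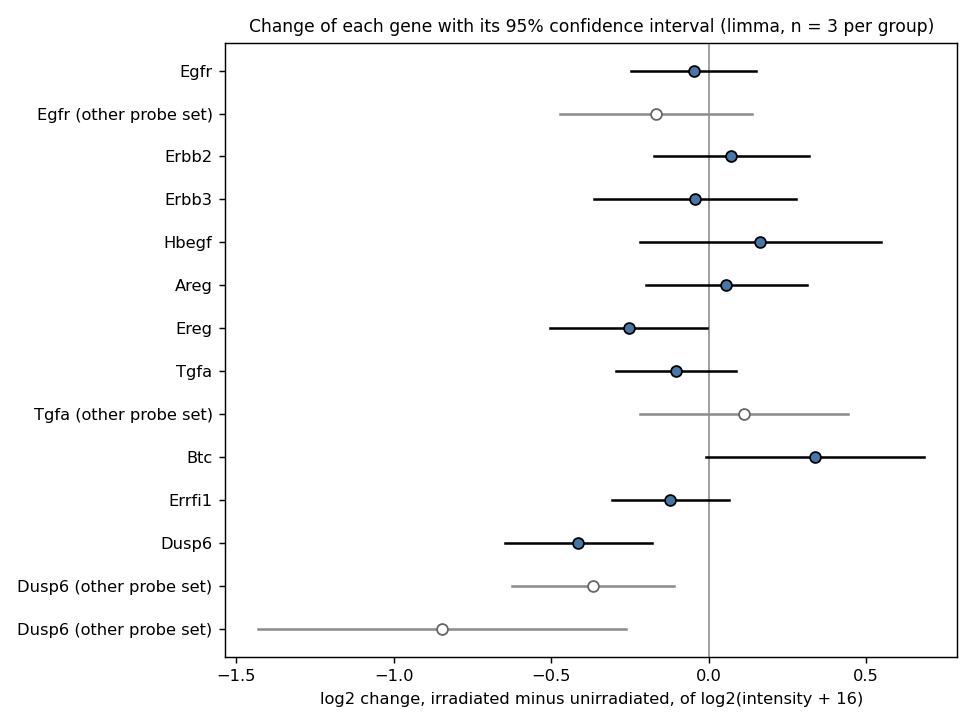
Log2 change (irradiated minus unirradiated, n = 3 per group) of the 10 genes, with 95% confidence intervals from limma; filled points are the probe set with the highest mean and open points the other tested probe sets of the same gene. The intervals of 8 genes include 0, and all 3 probe sets of Dusp6 lie below 0.

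Of the inhibitors, Errfi1 was at 684.9, 699.5 and 597.8 without and 609.1, 588.4 and 616.4 with irradiation. Unirradiated replicate 3 lay among the irradiated values. Its log2 change was -0.12 (-0.31 to 0.065; limma adjusted p = 0.594). Dusp6 was at 590.3, 460.2 and 607.0 without and 401.6, 427.9 and 394.0 with irradiation. All irradiated values were below all unirradiated ones, and unirradiated replicate 2 was the nearest to them. The log2 change of Dusp6 was -0.41 (-0.65 to -0.18; limma adjusted p = 0.0779), which was lower than that of all but 2.12% of tested probe sets.

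Both other probe sets of Dusp6 were also lower on every irradiated array. The brighter of them was at 185.9, 190.5 and 161.5 without and 120.3, 147.0 and 139.5 with irradiation, a log2 change of -0.37 (limma adjusted p = 0.167). The dimmer was at 138.2, 128.0 and 161.9 without and 97.3, 105.6 and 33.4 with irradiation, a log2 change of -0.85 (limma adjusted p = 0.162). Its value on irradiated replicate 3 stood far below those on the other irradiated arrays. Probe sets of a gene read the same RNA on the same arrays and are not replicates of the comparison. With the 3 probe sets averaged on the log2 scale, Dusp6 passed in limma (-0.54, adjusted p = 0.0303), as it did without unirradiated replicate 2 (-0.54, adjusted p = 0.0157). In 15 other settings it did not, with limma adjusted p up to 0.264. The fit with averaged probe sets was adjusted over genes rather than over probe sets.

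The groups did not overlap in 2 of 10 genes, Dusp6 and Ereg, which is near the 19.2% of all tested probe sets whose groups did not overlap. At each gene's own error, a limma call would have needed a log2 change of at least 0.37 in Errfi1 and Tgfa, 0.46 in Dusp6 and 0.75 in Hbegf, with the other genes between 0.37 and 0.75. Smaller observed changes would not have passed at these errors, which sets no limit on the size of the true changes. The intervals nevertheless bound the changes of the probe sets with the highest mean. Those of all 10 genes lay between -0.65 and 0.68, and those of 6 genes between -0.5 and 0.5. The dimmest probe set of Dusp6 reached past these bounds, with an interval from -1.43 to -0.26. Over the 45 pairs of these genes, Pearson correlations of log2 values across the 6 arrays ran from -0.86 (Hbegf and Ereg) to 0.68 (Tgfa and Errfi1), with array and scaling shared by both genes of a pair.

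**Figure D3:**
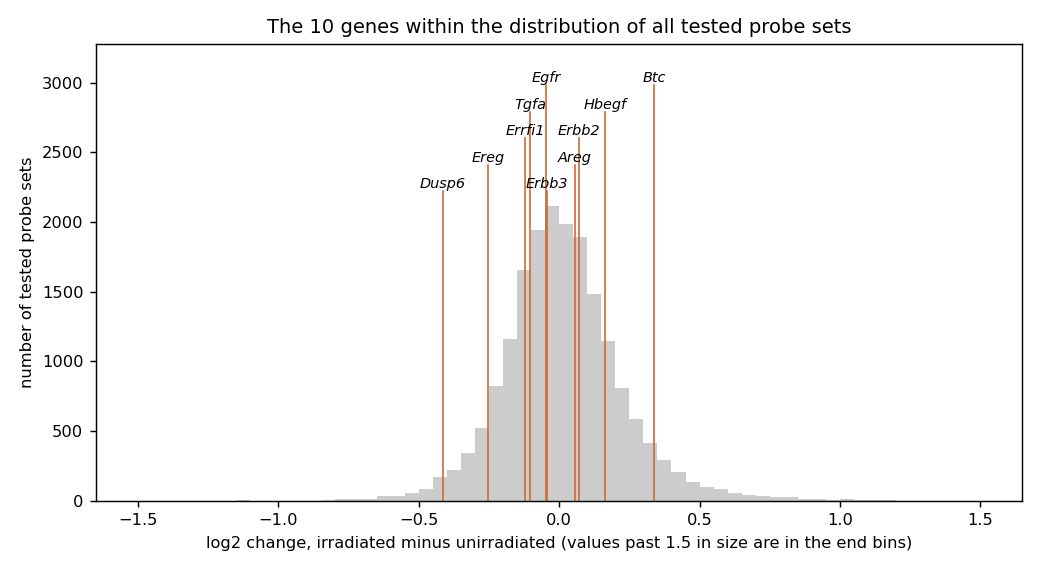
Number of tested probe sets (18625 in all) by log2 change, irradiated minus unirradiated, in grey, with an orange line at each of the 10 genes. Dusp6 (-0.41) and Btc (0.34) lie at the edges of the central mass and the other genes within it.

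The rest of the pathway was read from 89 further genes, of which 72 had a probe set under that single symbol and 66 were bright enough to be tested. In limma 0 were called higher and 1 lower, against 1.5% and 0.564% of all tested probe sets, and the median log2 change was 0.019. The groups did not overlap in 16 of the 66, of which 8 were higher and 8 lower after irradiation, beside 19.2% of all tested probe sets without overlap. Myc, a growth-promoting transcription factor and a target of ERK signalling, was the gene called. It fell from 1130.6, 1196.6 and 1123.3 to 797.9, 834.7 and 768.8, with no overlap between the groups. The log2 change of Myc was -0.51 ± 0.08 (SE; limma adjusted p = 0.0033), and its call ended in limma without an intensity trend in the variance (adjusted p = 0.0538).

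The other 15 tested ERK targets did not pass, and they pointed in both directions. The immediate-early gene Ier2 was at 797.1, 716.9 and 684.6 without and 575.8, 597.5 and 631.4 with irradiation, with a log2 change of -0.28 (limma adjusted p = 0.151). Other targets, named after their values were seen, went either way: the AP-1 subunit gene Junb had a log2 change of -0.38, the early-response transcription factor gene Egr1 of 0.27 and Fos of 0.22. All of these had groups without overlap, which with Myc made 5 of the 16 tested targets, beside 19.2% of all tested probe sets. The limma adjusted p was 0.151 for Ier2, 0.167 for Junb, 0.299 for Egr1 and 0.565 for Fos. A second probe set of Fos had overlapping groups and was too dim to be tested. Among 14 other feedback inhibitors 0 passed. Dusp7, a close relative of Dusp6 that also acts on ERK, had a log2 change of -0.34 (limma adjusted p = 0.260), with unirradiated replicate 2 and irradiated replicate 2 overlapping. Ptpn1, a tyrosine phosphatase that acts on the receptor, had a log2 change of 0.32 (limma adjusted p = 0.366), and a second probe set of it of 0.037. Without unirradiated replicate 2 the log2 change of Ptpn1 was 0.13.

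Upstream and downstream of the receptor, 0 genes passed in 5 lists. Of 5 tested sheddases and cofactors, Rhbdf2, which brings the sheddase Adam17 to the cell surface, had a log2 change of -0.25 and Adam17 itself of 0.15. Of 16 adaptors and enzymes at the receptor, the kinase Src had a log2 change of 0.20 and the phospholipase gene Plcg1 of 0.20. Other probe sets of Src had log2 changes of 0.015, -0.19 and -0.21. In the Ras-ERK cascade, 7 of 13 listed genes were not analysed here. Of the 6 tested, Araf had a log2 change of 0.15 and Map2k1 of -0.17. In the PI3-kinase and Akt branch, 8 genes were tested, with log2 changes of -0.17 in Akt1 and 0.18 in Pdpk1. The limma adjusted p of these genes lay between 0.327 (Akt1) and 0.565 (Adam17), with 0.333 in Rhbdf2, 0.337 in Src, 0.448 in Plcg1, 0.492 in Araf, 0.501 in Map2k1 and 0.500 in Pdpk1. Without irradiated replicate 3, the log2 change of Rhbdf2 was -0.15, that of Plcg1 0.093, that of Map2k1 -0.086 and that of Pdpk1 0.088.

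Of the receptor and ligand genes outside the 10, Nrg1, a ligand of Erbb3 and Erbb4, was the only 1 tested, with a log2 change of -0.032 (limma adjusted p = 0.942). Its sign turned without irradiated replicate 2 (0.016) and with its tested probe sets averaged (0.014). Erbb4, Egf, Nrg2 and Nrg4 were too dim to be tested, below the intensity of 18.0 at which probe sets were left out. Egf was at 5.2, 5.3 and 0.4 without and 12.6, 8.1 and 12.6 with irradiation, which lies in this dim range, and Erbb4 was between 1.2 and 6.7.

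**Figure D4:**
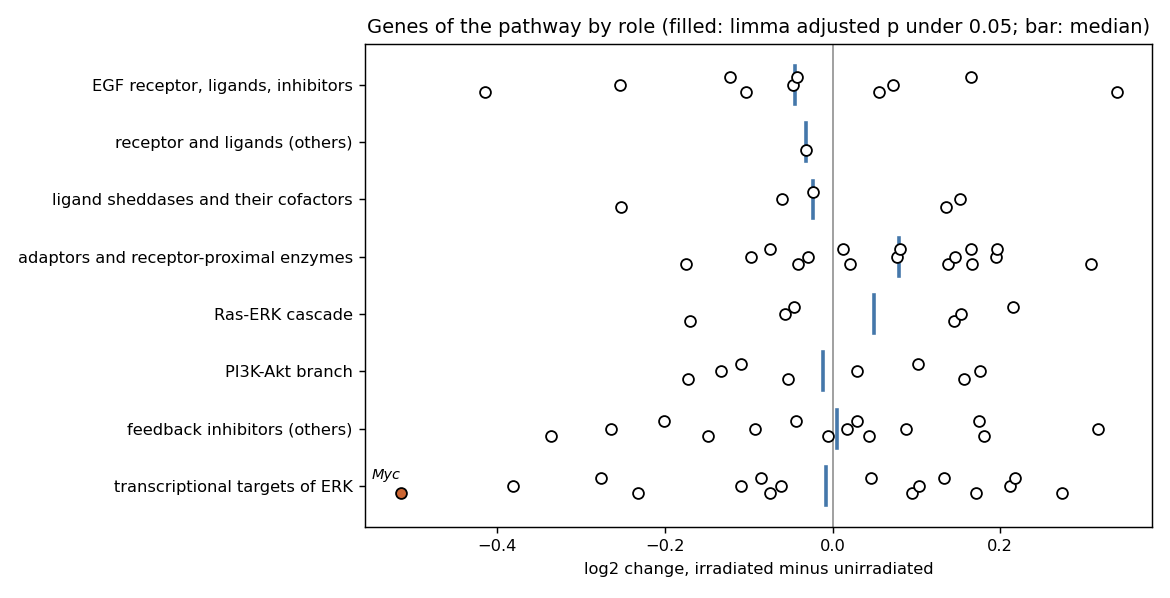
Log2 change (irradiated minus unirradiated) of the 10 genes, in the top row, and of the 66 other tested pathway genes by role; each point is a gene, the blue bar is the median of the row, and filled points passed in limma. Myc is the only filled point, and the points of each row with over 1 gene lie on both sides of 0.

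The genes most like Dusp6 across the 6 arrays, out of 10350 compared, were Amotl1, Wdr26 and Fgfbp1, with Pearson correlations of log2 values of 0.992, 0.984 and 0.979. In all, 26 genes exceeded 0.95, and all 6 arrays are shared by the genes compared. How many unrelated genes would exceed 0.95 over 6 arrays was not tested. The correlation spans both groups, so it favours genes that, like Dusp6, are lower on the irradiated arrays. A fall in a gene picked this way is therefore partly fixed by the choice. Fgfbp1, which encodes a secreted carrier of fibroblast growth factors, fell from 619 ± 140 to 399 ± 21.7 (mean intensity ± SD, n = 3; log2 change -0.59, limma adjusted p = 0.0454), while Amotl1 and Wdr26 did not pass. The call of Fgfbp1 held in 7 of 17 other settings, and of the fits with 1 array left out it held only in that without unirradiated replicate 2; the others gave a limma adjusted p up to 0.160.

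Over the whole table, limma called 280 probe sets higher and 105 lower. Pairs of arrays from the same group correlated at 0.984 to 0.988 on the log2 scale, and pairs from different groups at 0.980 to 0.984. All 12 markers found from the keratinocyte list passed the intensity filter, led by Krt14 (7140 without and 5492 with irradiation) and Krt5 (6123 and 4845). Of these, limma called 5 lower and 0 higher, beside 0.564% and 1.5% of all tested probe sets. They were Krt14 (limma adjusted p = 0.0496) and, named after their values were seen, Tp63 (0.0063), Krt15 (0.0121), Krt17 (0.0299) and Sfn (0.0338). Without the intensity filter, only Tp63 among these 5 kept its call (limma adjusted p = 0.0400). The keratinocyte list did not move as a whole. Of its markers that were not called, Cdh1 had a log2 change of 0.13 and Itgb4 of 0.072. The others not called were Krt5 (-0.34), Dsp (-0.22), Jup (-0.17), Itga6 (-0.080) and Epcam (-0.017). The call of Krt14 held in 5 of 17 other settings and ended without any 1 array (limma adjusted p up to 0.161). The log2 change of Krt5 was -0.34 as deposited, -0.19 after quantile and -0.22 after cyclic loess normalization. For Krt14 these values were -0.38, -0.24 and -0.25. The 99th percentile of intensity was 2656 to 2764 on the unirradiated and 2411 to 2611 on the irradiated arrays. Its part in the values of the bright markers was not tested. The summed intensity of the keratinocyte list was 31337 to 35770 without and 26008 to 28927 with irradiation. The part of this list in the values of the 10 genes was not tested. Of the markers of other skin cells, all 3 endothelial and all 4 immune ones, 6 of 8 fibroblast and 4 of 6 melanocyte ones were below the intensity filter. Fibroblast markers summed to 446 to 515 without and 371 to 401 with irradiation, mostly Col3a1, at 413 without and 295 with irradiation (limma adjusted p = 0.0271). The list did not move as a whole: Col1a1, at 17.3 without and 36.1 with irradiation (limma adjusted p = 0.0825), and Col1a2, at 4.4 and 10.5 and below the filter, were higher on all irradiated arrays. These 3 genes were named after their values were seen. Melanocyte markers summed to 88.4 to 101 without and 59.0 to 79.1 with irradiation. Most of this difference lay in Mitf, at a mean of 37.5 without and 16.8 with irradiation (limma adjusted p = 0.0635). Pmel was at 24.1 and 21.2, Dct at 13.5 and 10, and Tyr at 8.3 and 8.2. The means of Tyrp1 (8.2 and 11.3) and Sox10 (3.2 and 3.7) were higher with irradiation. Endothelial markers summed to 10.7 to 31.9 without and 16.3 to 24.4 with irradiation, and immune markers to 20.1 to 44.1 and 19.4 to 43.7.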

How the data were processed

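The submitters' design text names BRB ArrayTools 3.3.0 for the processing. Each deposited value is a linear intensity of a probe set, 1 per array. How the authors summarised and scaled the probes is not given in the sources used here. In each column, the mean after trimming 2% at each end was 150.04 to 150.05 on all arrays. They were kept as deposited. From 31099 probe sets, 57 controls and those at or below the 40th percentile of mean intensity (18.0) were left out, which kept 18625. Values were taken as log2(intensity + 16) and all 6 arrays entered 1 fit in R 4.3.3 with limma 3.58.1 (lmFit, then eBayes with an intensity trend), two-sided and without covariates. Calls were made at 0.05 after Benjamini-Hochberg adjustment across the tested probe sets. The number of arrays limits the precision, with a median SE of 0.14.

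Symbols came from the platform annotation, and all 10 matched RefSeq (GRCr8) by Entrez ID. The genes, the pathway and marker lists, the tests and the rule for named genes were chosen with earlier results of these data known. Besides the 10 genes, the rule covered those called in each pathway list or, with fewer than 2 calls, those with the smallest p up to 2. It also covered the 3 genes most correlated with the member of smallest p, and Krt5 and Krt14. Junb, Egr1, Fos, Krt15, Krt17, Tp63, Sfn, Col3a1, Col1a1 and Col1a2 were named outside the rule, after their values were seen. The values of Egf, Erbb4 and the other keratinocyte and melanocyte markers were also given outside it. The procedure was tested on simulated data. The other settings tried were quantile, median and cyclic loess normalization, and pseudocounts of 1 or 64 or a floor of 10. Filtering at the 60th percentile or not at all, and robust eBayes or eBayes without trend, were tried too. So were averaged probe sets and leaving out each array. Averaging used only the probe sets of a gene above the filter, and adjusted over genes. Applying these settings to single pathway genes and to counts of groups without overlap was decided after seeing the data.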

Additional observations from a re-analysis of the deposited data

How the results depend on the processing

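In 17 alternative settings, 0 of the 10 genes were called higher by limma. The number called lower was 0 in 15 of them. It was 1, Dusp6, where all tested probe sets of a gene were averaged and without unirradiated replicate 2. With 1 array left out it ranged from 0 to 1. Of 169 values of the 10 genes under these settings, 165 kept their direction and 7 genes kept it throughout. The sign turned for Tgfa with averaged probe sets (0.0046), for Erbb3 without unirradiated replicate 3 (0.073) or irradiated replicate 3 (0.0051), and for Areg without unirradiated replicate 3 (-0.037). With 1 array left out, Erbb3 ranged from -0.17 to 0.073, Areg from -0.037 to 0.10, Egfr from -0.11 to -0.0014, Erbb2 from 0.00072 to 0.14, Tgfa from -0.15 to -0.045, Errfi1 from -0.19 to -0.080 and Dusp6 from -0.54 to -0.34. Hbegf could not be tested with the filter at the 60th percentile. The number of genes without overlap between groups was 4 without irradiated replicate 1 and 2 or 3 in all other settings. The median of the 10 genes lay between -0.068 and -0.0040 in all settings.

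Among the other pathway genes, limma called 0 lower without an intensity trend, where Myc had an adjusted p = 0.0538, and 0 higher in all settings. With averaged probe sets the signs of Nrg1 (0.014) and Src (-0.047) turned, and that of Nrg1 turned without irradiated replicate 2, in a range from -0.10 to 0.016 with 1 array left out. Wdr26 turned to 0.0079 with averaged probe sets. Over the whole table, limma called 223 probe sets without a filter, 170 without trend and 201 to 286 with 1 array left out, against 385; it called 227 without unirradiated replicate 1, 229 without irradiated replicate 1 and 201 without irradiated replicate 2. Fewer arrays give less power, and the cause of the other differences was not tested. The background of the arrays was not measured here; Hbegf and Btc were the dimmest of the 10 genes.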
